A study of Mus musculus with 4 samples.

Results

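The translation initiation factor genes examined here were the rows of the gene count table whose mouse symbol began with Eif1 to Eif6. Of 66 such symbols, 10 pseudogenes carrying -ps in the symbol and the X- and Y-linked pair Eif2s3x and Eif2s3y were left out, which left 54 of 55418 genes. By annotation 53 encode proteins and 1, Eif2c5, is a long intergenic RNA with an older Argonaute-type name. Eif1ad and Eif4a3 resemble initiation factors by sequence without belonging to the initiation machinery, and they were kept because the symbol alone chose the members.

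The libraries came from mouse E14 embryonic stem cells (ESCs) grown on gelatin with serum and leukaemia inhibitory factor, in 2 WT and 2 Pim3-/- libraries. Pim3 encodes a serine/threonine kinase, and the Pim3-/- lines were independent clones made with Cas9 and guides to exons 4 and 6, so that each Pim3-/- library stood for 1 clone. PolyA+ RNA was sequenced, and the comparison asked which transcripts differed once the kinase gene had been mutated. With 2 libraries a group, p-values measured the spread among these cultures and clones, and a difference between genotypes cannot be told apart from a difference between the clones and the WT cultures.

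Initiation of translation places a ribosome on the start codon of an mRNA. The factor eIF2 brings the initiator tRNA to the small subunit, where eIF1, eIF1A, eIF3 and eIF5 assemble with it, while eIF4F (the cap-binding eIF4E, the scaffold eIF4G and the helicase eIF4A) recruits the complex to the capped mRNA. Phosphorylation of eIF2 by 4 kinases and sequestration of eIF4E by the 4E-binding proteins (4E-BPs) are the classical brakes on this step, and the target of rapamycin complex mTORC1 releases the second of them.

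About as many transcripts of the initiation machinery were lower in Pim3-/- ESCs as passed the test in neither direction, and a few were higher. Of the 52 genes with enough counts to be tested, 25 were downregulated, 3 were upregulated and 24 passed in neither direction (edgeR quasi-likelihood test, Benjamini-Hochberg adjusted p under 0.05 over all 18444 tested genes). Among all tested genes 16.2% were called lower and 17.6% were called higher. The median log2 fold change, Pim3-/- over WT, was -0.60 for the initiation factor genes and 0.07 for all genes. All 25 downregulated genes differed by more than 1.5-fold and 10 of them by more than 2-fold. The upregulated genes were Eif4e3, Eif2ak3 and Eif5.

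How far these counts held depended on the scaling of the libraries. TMM factors, which scale libraries on the bulk of genes, came to 0.828 and 0.883 in WT and to 1.167 and 1.172 in Pim3-/- ESCs. Scaled by library totals instead, the median of all genes moved to 0.52 and that of the initiation factor genes to -0.15. Rescaling shifts every gene by nearly the same amount. The distance between these medians, -0.67 under both scalings, could therefore hardly change and is no check. With library totals 8 initiation factor genes were called lower and 7 higher. The 8 genes lower under both scalings were Eif1a, Eif1ax, Eif2s1, Eif2s2, Eif3i, Eif3k, Eif3m and Eif4a1. Eif4e3, Eif2ak3 and Eif5 were higher under both, while Eif2ak4, Eif3f, Eif4ebp2 and Eif4enif1 were called higher only with library totals. Leaving out WT replicate 1 or WT replicate 2 gave a median of -0.64 or -0.67 for the initiation factor genes. Few of the calls remained in these fits, but the spread then rests on the wider Pim3-/- pair alone. Their calls are therefore not comparable.

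The initiation factor genes are abundant, and abundant genes as a whole were lower in Pim3-/- ESCs. Their median expression was 7.58 log2 CPM (counts per 1e6, TMM-scaled), against 3.54 for all genes. Among the 581 genes at or above 8 log2 CPM, 54.2% were called lower with a median log2 fold change of -0.73, and the 19 initiation factor genes in that range gave 52.6% and -0.62. Between 6 and 8 log2 CPM the corresponding values were 39.4% and -0.41 for all 2502 genes, and 57.1% and -0.79 for 21 initiation factor genes. The share of called genes was therefore close to that of equally abundant genes in the highest range and above it in the next one, and the difference between these shares was not tested. Across genes, the log2 fold change correlated with mean log2 CPM at r = -0.47 over the 52 initiation factor genes and -0.42 over all tested genes, a description over genes that share the same 4 libraries.

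**Figure D1:**
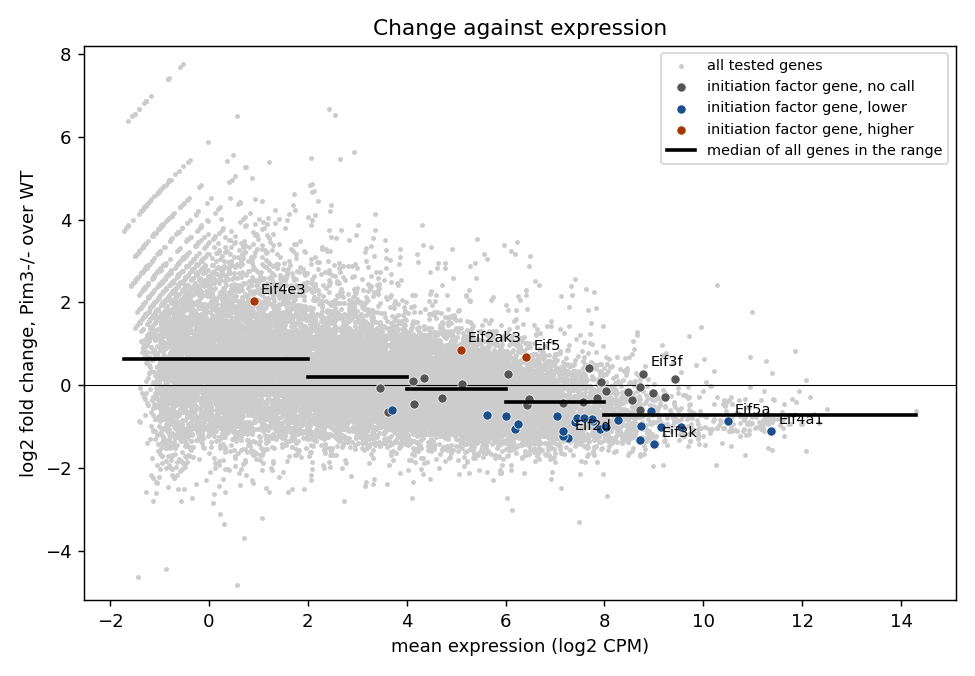
Log2 fold change, Pim3-/- over WT, against mean expression in log2 CPM for all 18444 tested genes in grey and the 52 tested initiation factor genes in colour by call, with black bars at the median of all genes in each of 5 expression ranges. The bars step down from 0.63 at the lowest expression to -0.73 at the highest, and Eif5, Eif2ak3 and Eif4e3 stand above the bar of their range.

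The library totals ran from 22029427 to 25668307 counts. Initiation factor genes took 1.61% and 1.63% of the counts in WT ESCs and 1.47% and 1.32% in Pim3-/- ESCs. Pim3 itself had 4392 and 4953 counts in WT against 4970 and 4804 in Pim3-/- libraries (log2 fold change -0.27, SE 0.17, edgeR adjusted p = 0.251). A mutation that disrupts the protein need not lower the transcript, so this level does not check the labels. Pluripotency markers summed to 11015 and 9969.8 CPM in WT and 7076 and 6815 CPM in Pim3-/- ESCs, with 4 of 10 called lower and none at 0. The sum of 7 fibroblast markers lay between 20.3 and 25.4 CPM in every library, most of it from Thy1 (18.2 to 20.9 CPM). Col1a1 and Col1a2 were highest in Pim3-/- replicate 1, at 140 and 30 counts, against at most 52 and 3 in any other library. Markers of other states differed: 7 of 7 2-cell-like markers were higher, summing to 17.1 and 13.7 CPM in WT against 148 and 41.5 CPM, as were 5 of 5 tested primitive endoderm markers (2.76 and 4.37 against 26.6 and 16.9 CPM), while trophoblast markers summed to 65 and 66.2 against 49.5 and 82.5 CPM with 2 of 4 tested higher. Among all tested genes 17.6% were called higher. Some of these markers passed the filter only through the Pim3-/- libraries and could only be called higher. Sox7 had 3 and 0 counts in WT against 91 and 67, and Duxf3 had 3 and 5 against 81 and 37. The part of cells in these other states in the results was not tested. In bulk RNA fewer cells of a type cannot be told apart from less RNA per cell.

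Separation of the libraries showed the same lean. Both Pim3-/- libraries lay below both WT libraries for 34 tested initiation factor genes, above them for 6, and among them for 12, where 34.2% of all tested genes lay wholly below and 38.3% wholly above. The WT pair was tight, with no tested initiation factor gene more than 1.5-fold apart, whereas the Pim3-/- pair was more than 1.5-fold apart for 11, of which 6 had been called. Pim3-/- replicate 2 was the lower of the pair for 34 genes and the higher for 18. Over the 52 genes the differences of the Pim3-/- libraries from the WT mean correlated with each other at r = 0.77, again a description, since both are taken from the same WT mean.

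**Figure D2:**
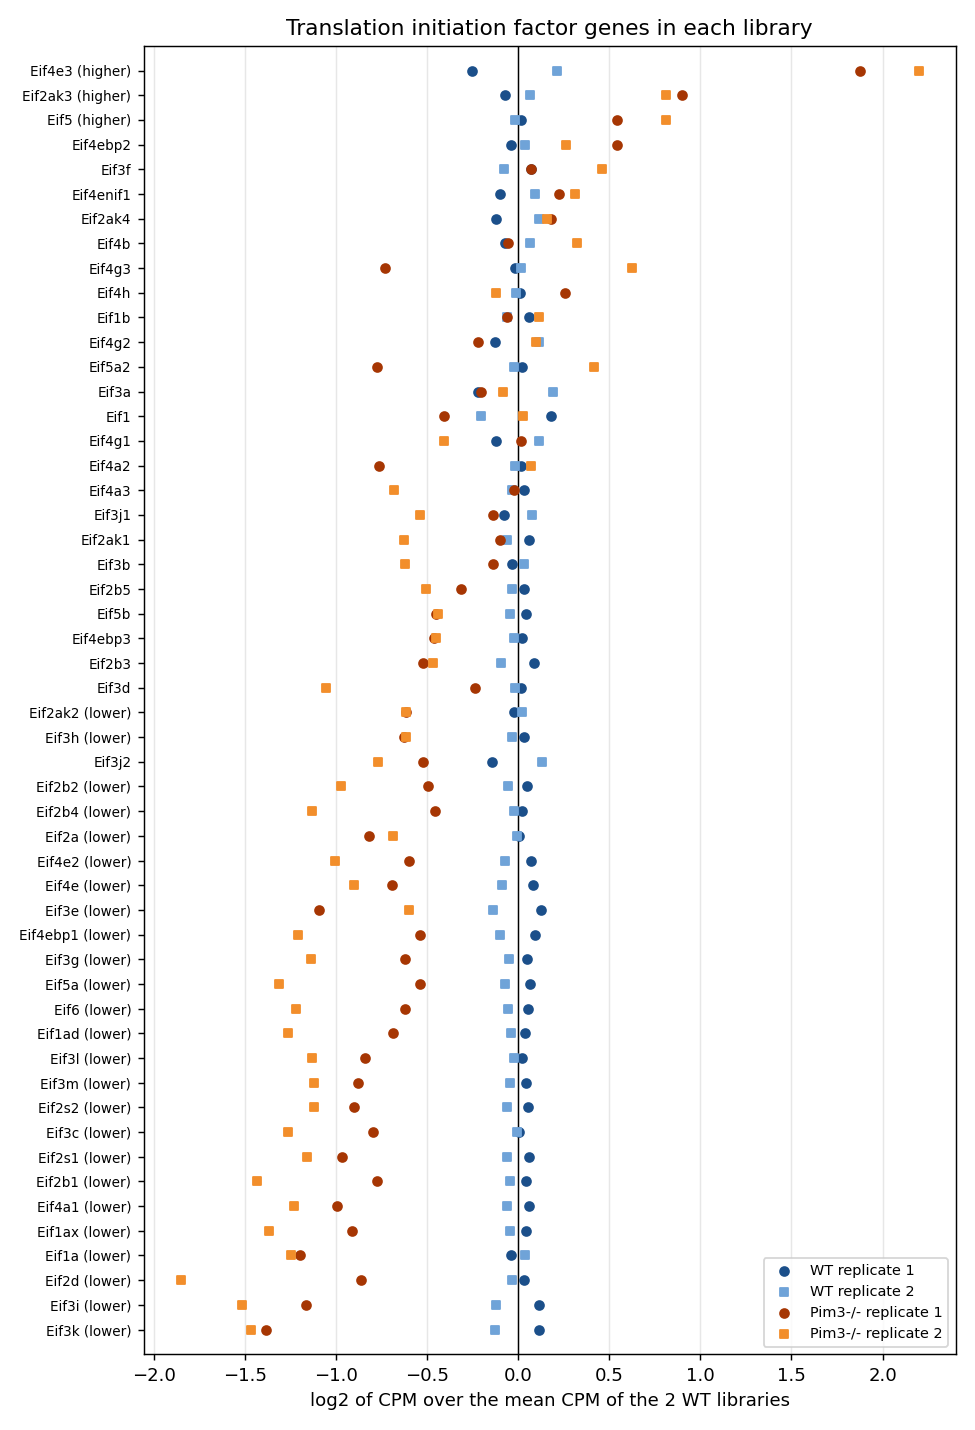
Log2 of CPM over the mean of the 2 WT libraries for each of the 52 tested initiation factor genes, ordered by log2 fold change, with 1 point for each library. Blue WT points cluster at 0 while the brown and orange Pim3-/- points of the 25 genes marked lower lie to the left of them, and those of Eif4e3, Eif2ak3 and Eif5 lie to the right.

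Promoter sequences were available for 42 of the 54 genes (RefSeq, GRCm38.p6). The 250 bases before the start are shown for Eif4a1, the downregulated gene with the most counts, and for Eif2ak3, an upregulated one, with capitals marking CACGTG and CCAAT in either orientation. Eif4a1 lies on the minus strand and its window is chr11:69672424-69672673, and the Eif2ak3 window on the plus strand is chr6:70844265-70844514.
Eif4a1: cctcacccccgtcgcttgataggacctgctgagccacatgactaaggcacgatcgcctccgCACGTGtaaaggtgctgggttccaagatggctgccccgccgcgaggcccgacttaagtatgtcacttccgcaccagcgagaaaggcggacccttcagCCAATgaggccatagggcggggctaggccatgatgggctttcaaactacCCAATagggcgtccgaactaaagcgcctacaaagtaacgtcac
Eif2ak3: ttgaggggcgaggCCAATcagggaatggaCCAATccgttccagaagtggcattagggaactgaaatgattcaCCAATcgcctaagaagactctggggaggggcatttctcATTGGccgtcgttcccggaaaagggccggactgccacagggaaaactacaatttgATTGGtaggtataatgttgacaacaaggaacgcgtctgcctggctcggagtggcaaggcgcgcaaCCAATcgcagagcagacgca

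Counted from the start, the Eif4a1 window holds CACGTG, the E-box core, at -189 and CCAAT at -92 and -43. The Eif2ak3 window holds CCAAT at 6 places, a number reached by 17 of 27025 promoters (0.0629%). Searched on both strands, CACGTG occurred in 7 of 42 initiation factor promoters (16.7%) and in 6.04% of all promoters, and the ETS core CCGGAAG in 10 of 42 (23.8%) and 7.10%. CCAAT was found in 28.6% and 34.5%, TATAAA in 7.14% and 13%, and the C/EBP-ATF composite TGATGNAAN in 0 of 42 and 3.52%. Base composition differs as well, with a median GC content of 59.8% against 52.0%. Except for Eif2c5, the 42 genes encode proteins, so protein-coding promoters are the closer background. Among 16503 of those, CACGTG occurred in 6.78% and CCGGAAG in 9.53%, with a median GC content of 56%. CCAAT was in 36.1% of them, TATAAA in 11.9% and the composite in 3.05%. By call, CACGTG was in 2 of 19 downregulated and 5 of 20 uncalled genes, and CCGGAAG in 6 of 19 and 4 of 20. CCAAT was in 5 of 19 and 6 of 20. Of the 2 upregulated genes with a promoter, Eif2ak3 held CCAAT and Eif5 held none. A match of letters is no evidence that a factor binds there.

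All 4 genes tested for factors that carry the initiator tRNA were lower, beside 16.2% of all tested genes. Eif2s1, Eif2a and Eif2d lie between 6 and 8 log2 CPM, where 39.4% of all tested genes were called lower. For Eif2s2, at 9.15 log2 CPM, the share was 54.2%. Eif2s1, the alpha subunit of eIF2 that the stress kinases phosphorylate, had 6481 and 7059 counts in WT against 4441 and 3760 in Pim3-/- ESCs, which gave a log2 fold change of -1.06 (SE 0.18, adjusted p = 0.00722). Eif2s2, the beta subunit, had 15077 and 16458 against 10844 and 8981 counts and was 2.01-fold lower (SE of the log2 fold change 0.20, adjusted p = 0.0103). The WT and Pim3-/- libraries did not overlap for either, and both calls held with library totals; the gamma subunit was not analysed here. Eif2a, which despite its symbol is not a subunit of eIF2 and can deliver initiator tRNA separately, was 1.68-fold lower (adjusted p = 0.0145), a call lost with library totals (-0.30, adjusted p = 0.199). Eif2d, which binds tRNA to ribosomes without GTP, had 4264, 4800, 3193 and 1553 counts (-1.27, SE 0.30, adjusted p = 0.0183), and library totals gave -0.82 (adjusted p = 0.0519). For Eif2d the Pim3-/- libraries stood far apart, so its ratio to Eif2a in counts was 1.33, 1.27, 1.27 and 0.581 in WT replicates 1 and 2 and Pim3-/- replicates 1 and 2.

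The exchange factor eIF2B reloads eIF2 with GTP, and 3 of its 5 subunit genes were downregulated. Their median expression was 6.2 log2 CPM, and 39.4% of all tested genes between 6 and 8 log2 CPM were called lower. Eif2b1, the regulatory alpha subunit, was the lowest, with 1966 and 2195 counts in WT against 1560 and 954 in Pim3-/- ESCs (-1.06, SE 0.23, adjusted p = 0.0138). Eif2b2 had 1219, 1341, 1166 and 806 counts (-0.71, SE 0.20, adjusted p = 0.0302) and Eif2b4 was 1.69-fold lower (adjusted p = 0.0410). Eif2b5, the catalytic epsilon subunit, had 4255, 4803, 4659 and 3936 counts and the value nearest to 0 of the 5 (-0.41, SE 0.18, adjusted p = 0.107). Eif2b3 gave -0.49 (adjusted p = 0.0520). None of the eIF2B genes was called with library totals.

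The 4 kinases of eIF2 did not move as a block. Eif2ak3 encodes PERK, the kinase of endoplasmic reticulum stress, and lies at chr6:70844515-70905245. It had 441 and 574 counts in WT against 1205 and 1094 in Pim3-/- ESCs, which was 1.81-fold higher (log2 fold change 0.86, SE 0.16, adjusted p = 0.00969), and both Pim3-/- libraries were above both WT libraries. Eif2ak2, the double-stranded RNA sensor PKR, had 298, 364, 276 and 266 counts (-0.61, SE 0.20, adjusted p = 0.0496), and that call was lost in 7 of 10 alternative analyses. Eif2ak1, the haem-regulated kinase, had 1978, 2151, 2472 and 1655 counts (-0.34, adjusted p = 0.239). Eif2ak4, the amino acid sensor GCN2, had 336, 468, 577 and 549 counts (0.17, adjusted p = 0.510).

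Shares within the kinase family do not depend on the scaling of libraries. Per kilobase of exon, Eif2ak3 made up 13.9% and 15.7% of the 4 kinase transcripts in WT and 26.1% and 30.3% in Pim3-/- ESCs. Eif2ak1 remained the largest component in each library, at 66.4% and 62.3% in WT and 56.8% and 48.7% in Pim3-/- ESCs. In plain counts the ratio of Eif2ak3 to Eif2ak1 was 0.223 and 0.267 against 0.487 and 0.661.

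**Figure D3:**
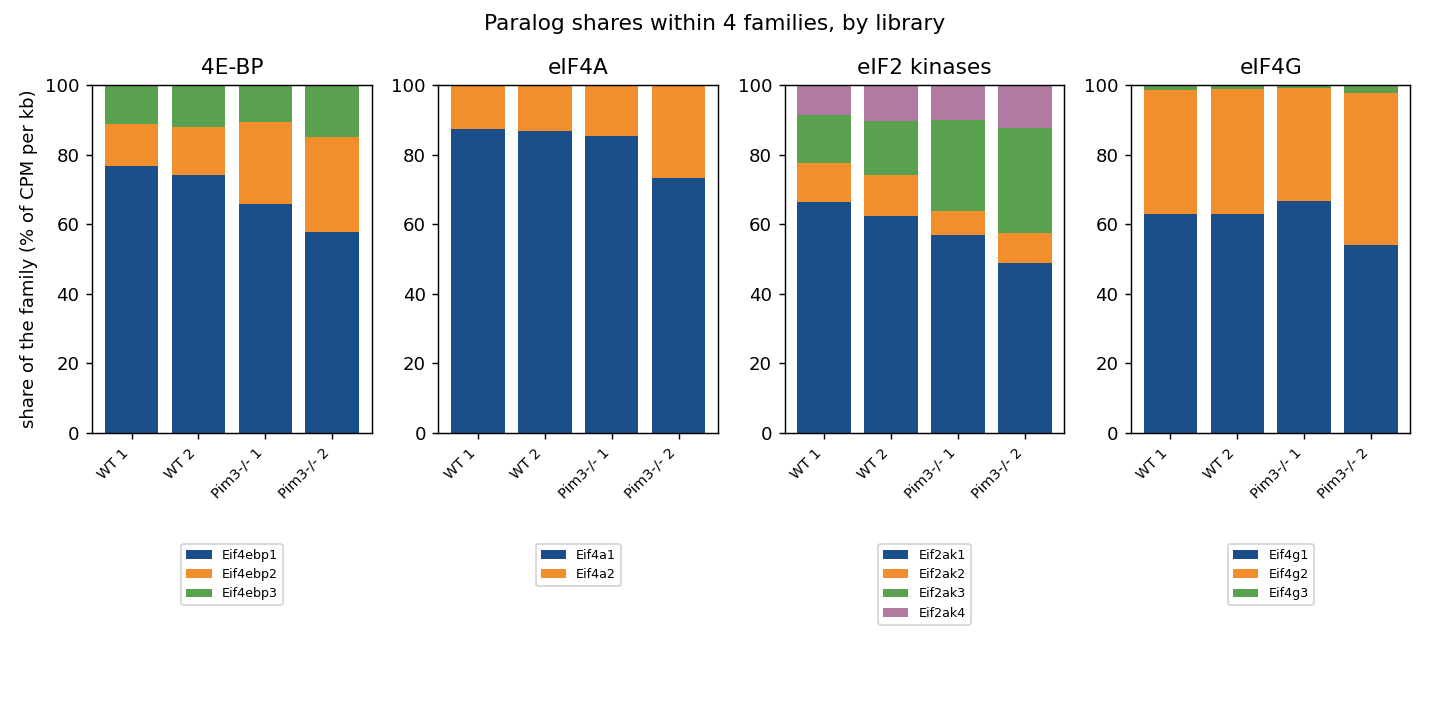
Share of each paralog in the summed CPM per kilobase of its family, in percent, for the 4E-BPs, eIF4A, the eIF2 kinases and eIF4G, with 1 bar for each library. Eif4ebp2 takes 11.9% and 13.8% in WT and 23.6% and 27.2% in Pim3-/- ESCs, and Eif2ak3 13.9% and 15.7% against 26.1% and 30.3%, while the eIF4A and eIF4G shares of Pim3-/- replicate 1 lie near those of WT.

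Of the factors that hold the small subunit open for scanning, the eIF1A genes were lower and the eIF1 genes were not called. Eif1a had 3767 and 4693 counts in WT against 2349 and 2194 in Pim3-/- ESCs (-1.22, SE 0.17, adjusted p = 0.00467). The X-linked Eif1ax had 3888, 4324, 2799 and 1966 counts (-1.12, SE 0.20, adjusted p = 0.00839). The eIF1A copies are near-identical in coding sequence, so that reads may be split between them by the counting, and their shares of the pair did not separate the genotypes (Eif1a 55.0% and 57.8% in WT, 51.5% and 58.5% in Pim3-/- ESCs). Eif1, the start codon fidelity factor, had 8135, 7375, 7547 and 9862 counts (-0.17, SE 0.23, adjusted p = 0.583), and its paralog Eif1b gave 0.03 (adjusted p = 0.907).

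eIF3, the large scaffold of the small subunit, was represented by 14 genes, of which 8 were downregulated and none upregulated. Its median log2 fold change was -0.73, at a median expression of 8.64 log2 CPM. All tested genes at or above 8 log2 CPM had the same median, with 54.2% called lower and 2.93% higher. These eIF3 values were thus close to those of equally abundant genes. Eif3k, a peripheral subunit at chr7:28971372-28981864, was the lowest of all initiation factor genes, with 15606 and 15605 counts in WT against 7705 and 7019 in Pim3-/- ESCs, 2.68-fold lower (-1.42, SE 0.20, adjusted p = 0.00474). Eif3i, of the module that also holds Eif3b and Eif3g, had 12511, 12553, 7199 and 5442 counts (-1.33, SE 0.21, adjusted p = 0.00617). For both genes the highest Pim3-/- library was far under the lowest WT library. Eif3c, Eif3e, Eif3g, Eif3l and Eif3m were 1.77-fold to 2.02-fold lower, with adjusted p from 0.00896 to 0.0269. Eif3h had 11721, 13216, 10344 and 10063 counts (-0.62, SE 0.18, adjusted p = 0.0363), a call kept in 5 of 10 alternatives.

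The other 6 eIF3 subunits were not called. Eif3a, the largest subunit and part of the core, gave -0.14 (SE 0.20, adjusted p = 0.609) and Eif3b gave -0.36 (adjusted p = 0.228). Eif3f, a subunit with an MPN domain, had 8044 and 8570 counts in WT against 11192 and 14189 in Pim3-/- ESCs and was the one eIF3 gene with a positive value (0.28, SE 0.21, adjusted p = 0.326). In CPM its lowest Pim3-/- library, at 419, overlapped the highest WT library, at 419.5. Library totals gave 0.73 with an adjusted p of 0.0229. Eif3f and Eif3k are subunits of the same complex, and their count ratio, free of any scaling, was 0.515 and 0.549 in WT and 1.45 and 2.02 in Pim3-/- ESCs. They had the highest and lowest log2 fold changes of the 14 eIF3 genes, so this ratio restates that difference and is no separate evidence.

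Levels per kilobase spread widely over the eIF3 genes, from 4.97 ± 0.375 CPM per kilobase (SD, n = 2) for Eif3j1 to 370.4 ± 12.4 (SD, n = 2) for Eif3h in WT ESCs. Eif3k was at 278 ± 32.9 in WT and 104 ± 4.29 in Pim3-/- ESCs. Eif3c went from 284 ± 1.28 to 141 ± 32.1 and Eif3i from 163 ± 18.9 to 64.9 ± 11.2, whereas Eif3f went from 138 ± 10.2 to 168 ± 32. Eif3j1 and its intronless copy Eif3j2 may share reads. For Eif3d, 43.3% of exon bases lie opposite Gm17638, and its strand cannot be resolved here; it gave -0.59 (adjusted p = 0.133), with 11559 and 6329 counts in the Pim3-/- libraries.

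**Figure D4:**
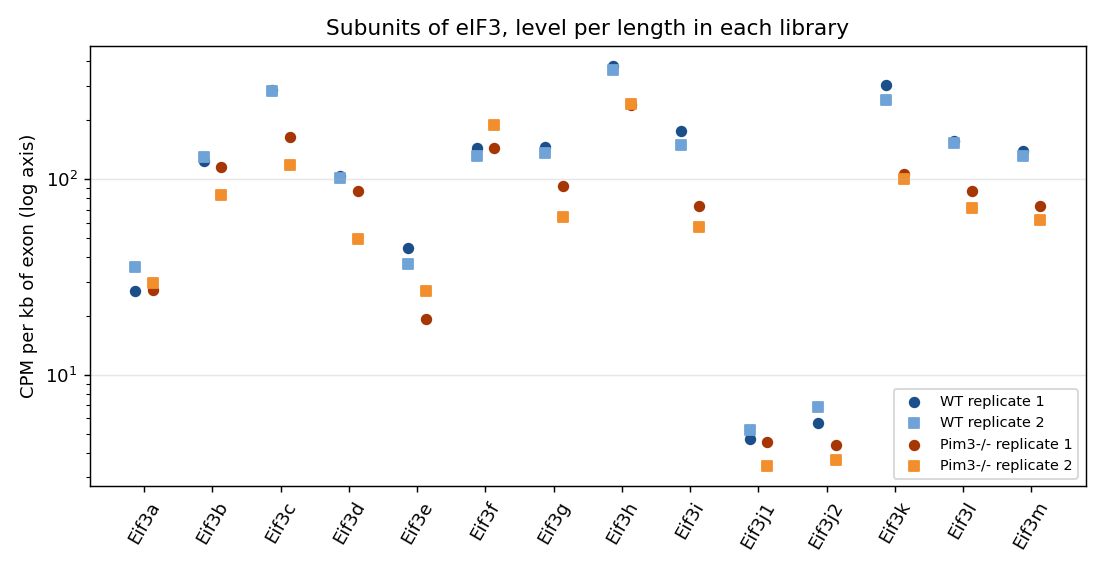
CPM per kilobase of exon on a log axis for the 14 eIF3 genes, with blue WT points left of brown and orange Pim3-/- points and 1 point for each library. Eif3k falls from a mean of 278 to 104 and Eif3i from 163 to 64.9 CPM per kilobase, Eif3f is at 138 and 168, and Eif3j1 and Eif3j2 lie far below the other subunits.

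Of 8 tested genes for eIF4F subunits and their paralogs, 3 were lower (Eif4a1, Eif4e and Eif4e2), 1 was higher (Eif4e3) and 4 were not called. Their median expression was 8.16 log2 CPM, and 54.2% of all tested genes at or above 8 log2 CPM were called lower. Eif4a1, the main eIF4A helicase at chr11:69666936-69672423, had 72007 and 78208 counts in WT against 48367 and 39656 in Pim3-/- ESCs (-1.11, SE 0.23, adjusted p = 0.0121). Per kilobase it was the most abundant initiation factor transcript in WT ESCs, at 831 ± 49.9 CPM per kilobase (SD, n = 2) beside 781 ± 52 for Eif5a, ranges that overlap. In Pim3-/- ESCs Eif4a1 was at 386 ± 44.6 and Eif5a at 426 ± 157 (SD, n = 2), ranges that also overlap. Its share of all initiation factor counts was 19.3% and 18.6% in WT and 14.3% and 13.7% in Pim3-/- ESCs. The pseudogene Eif4a-ps4, which resembles Eif4a1, had 1887, 1708, 968 and 800 counts (-1.37, SE 0.20, adjusted p = 0.00500), so reads of one may have been assigned to the other; Eif4a1 had 38.2 and 45.8 times its counts in WT and at least 49.6 times in each Pim3-/- library. The other 9 pseudogenes had at most 4 counts in any library.

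Eif4a2, the second helicase, had 12766 and 14740 counts in WT against 10361 and 17814 in Pim3-/- ESCs (-0.29, SE 0.28, adjusted p = 0.451). In CPM its Pim3-/- libraries lay on either side of WT, at 388 and 690.3 against 666 and 650.2. Its share of the eIF4A pair was accordingly 12.6% and 13.3% in WT, 14.8% in Pim3-/- replicate 1 and 26.7% in replicate 2. Eif4g1, the scaffold, had 9520, 13225, 14580 and 10502 counts (-0.18, SE 0.22, adjusted p = 0.549). Eif4g2, a relative that lacks the eIF4E-binding site, had 7547, 10565, 9869 and 11874 counts (-0.05, SE 0.21, adjusted p = 0.865). Eif4g3 had 316, 383, 269 and 664 counts (0.10, SE 0.39, adjusted p = 0.859), and its Pim3-/- libraries also lay on either side of WT. The helicase cofactors Eif4b and Eif4h gave 0.15 and 0.08, with adjusted p of 0.618 and 0.766.

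The eIF4E genes differed in direction. Eif4e, the cap-binding subunit, had 4475 and 4714 counts in WT against 3653 and 3048 in Pim3-/- ESCs (-0.79, SE 0.18, adjusted p = 0.0157). Eif4e2, which binds caps without recruiting eIF4G, had 4919, 5269, 4307 and 3148 counts (-0.79, SE 0.20, adjusted p = 0.0222). Eif4e3, an atypical cap-binding paralog at chr6:99625135-99666771, had 11 and 18 counts in WT against 67 and 81 in Pim3-/- ESCs, 4.08-fold higher (2.03, SE 0.41, adjusted p = 0.0115). It was a scarce transcript in both groups, at 0.311% and 0.478% of the eIF4E family per kilobase in WT and 2.20% and 3.34% in Pim3-/- ESCs. On the same strand, 14.8% of its exon bases overlap Gm20696. The germ-cell form Eif4e1b had 0, 3, 2 and 8 counts and was not tested.

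Among the brakes on eIF4E, 1 gene of 4 was called. Their median expression was 6.87 log2 CPM, and 39.4% of all tested genes between 6 and 8 log2 CPM were called lower. Eif4ebp1, the main 4E-BP and a target of mTORC1, had 8057 and 8361 counts in WT against 7252 and 4402 in Pim3-/- ESCs (-0.84, SE 0.25, adjusted p = 0.0376). The call was lost with library totals (-0.38, adjusted p = 0.228). Eif4ebp2 had 3294 and 4108 against 6870 and 5458 counts, a log2 fold change of 0.41 (SE 0.18, adjusted p = 0.121), and library totals gave 0.86 with an adjusted p of 0.0102. Between these genes the count ratio of Eif4ebp2 to Eif4ebp1 was 0.409 and 0.491 in WT and 0.947 and 1.24 in Pim3-/- ESCs. They had the highest and lowest log2 fold changes of the 4, so this ratio restates that difference. Eif4ebp3 had 399, 457, 397 and 387 counts (-0.46, SE 0.18, adjusted p = 0.0896), and 67.3% of its exon bases overlap another gene on the same strand. Eif4enif1, which carries eIF4E into the nucleus, gave 0.27 (adjusted p = 0.231).

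Per kilobase, Eif4ebp2 made up 11.9% and 13.8% of the 4E-BP transcripts in WT and 23.6% and 27.2% in Pim3-/- ESCs, and Eif4ebp1 76.8% and 74.2% against 65.7% and 57.8%. Eif4ebp1 was thus the most abundant 4E-BP transcript in all 4 libraries. No library of one genotype fell within the range of the other for either share.

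At start codon recognition and subunit joining the genes moved apart. Eif5, which makes eIF2 hydrolyse its GTP, lies at chr12:111538016-111546752 and had 1273 and 1473 counts in WT against 2560 and 2977 in Pim3-/- ESCs, 1.61-fold higher (0.68, SE 0.17, adjusted p = 0.0214). Eif5b, the GTPase of subunit joining, had 3267, 3641, 3241 and 3151 counts (-0.44, SE 0.16, adjusted p = 0.0723). Eif6, which keeps large subunits from joining prematurely, had 4405, 4818, 3842 and 2455 counts (-0.89, SE 0.23, adjusted p = 0.0228). Both Pim3-/- libraries were above WT for Eif5 and below WT for Eif6.

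Eif5a, the hypusine-bearing factor now known mainly from elongation and termination, had 37251 and 40086 counts in WT against 34116 and 19309 in Pim3-/- ESCs (-0.87, SE 0.29, adjusted p = 0.0497). Its call was lost with library totals (-0.42, adjusted p = 0.224). The rare paralog Eif5a2 had 217 and 248 counts in WT against 174 and 383 in Pim3-/- ESCs (-0.06, adjusted p = 0.913). Dhps and Dohh, the enzymes that make hypusine, were 2.85-fold and 2.35-fold lower, with adjusted p of 0.00304 and 0.00500. Of the genes related by name, Eif1ad was 1.93-fold lower (adjusted p = 0.0160) and Eif4a3, a core protein of the exon junction complex, gave -0.31 (adjusted p = 0.338).

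Other genes of translation gave mixed counts, to be read beside 16.2% called lower and 17.6% called higher among all tested genes. The elongation, termination and synthetase lists had a median expression of 7.31, 6.45 and 7.84 log2 CPM. Between 6 and 8 log2 CPM, 39.4% of all tested genes were called lower and 6.35% higher, with a median of -0.41. Differences from those shares were not tested. Among 12 tested elongation factor genes 4 were lower and 1 higher, with a median log2 fold change of -0.39. Eef1d (-1.26) and Eef1e1 (-1.24) were the lowest, while Eef2, the translocase, was higher (0.82, adjusted p = 0.0434). Termination and recycling factors gave 4 lower and 0 higher of 9 (median -0.65), led by Mcts2 (-1.47) and Mcts1 (-1.23). The cytosolic aminoacyl-tRNA synthetases gave 9 lower and 0 higher of 22 (median -0.62), led by Rars (-1.54) and Aimp1 (-1.24). Neither mitochondrial initiation factor gene was called, at -0.20 for Mtif2 and -0.49 for Mtif3.

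Genes that regulate initiation gave calls in both directions in each of 3 lists, as did all tested genes (16.2% lower, 17.6% higher). Differences between the lists and those shares were not tested. In the order given below, the lists had a median expression of 5.62, 6.72 and 4.96 log2 CPM. Between 4 and 6 log2 CPM, 22.4% of all tested genes were called lower and 15.3% higher. Between 6 and 8 log2 CPM it was 39.4% and 6.35%. Of 21 genes for cap and poly(A) cofactors and regulators of eIF4E, 1 was lower and 3 were higher (median 0.14). Cyfip1 was lower (-0.60), and Cyfip2 and the poly(A)-binding protein gene Pabpc4 were higher (1.19 and 0.68). Among 13 genes of eIF2 dephosphorylation and the stress response 5 were lower and 1 was higher (median -0.57). Ddit3, the stress factor CHOP, was lower (-1.08) and so was Cdc123, an assembly factor of eIF2 (-0.96), whereas Ppp1r15a, which directs a phosphatase to eIF2, was higher (0.86, adjusted p = 0.0148). Of 28 mTORC1 pathway genes 5 were lower and 4 higher (median 0.09). Lamtor4 (-1.60) and Lamtor5 (-1.05), of the complex that places mTORC1 on lysosomes, were lower. Ddit4, an inhibitor of mTORC1, had 1491 and 1671 counts in WT against 10527 and 8600 in Pim3-/- ESCs (2.26, SE 0.19, adjusted p = 0.00220), and Prkaa2, a catalytic subunit of AMPK, was 1.98-fold higher.

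**Figure D5:**
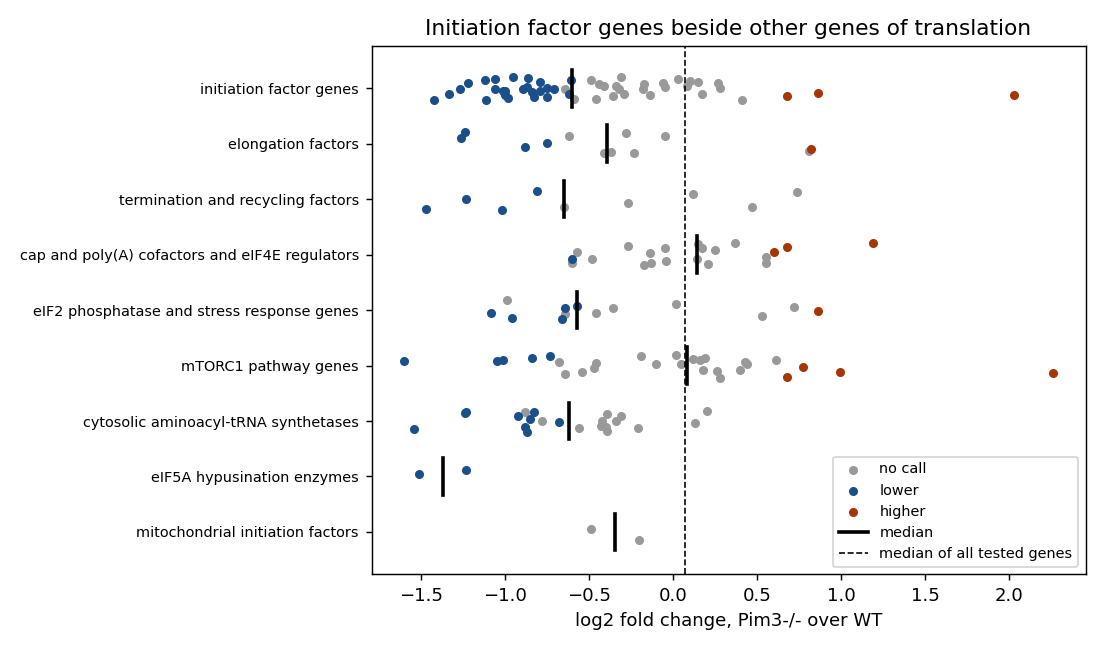
Log2 fold change, Pim3-/- over WT, of each tested initiation factor gene and of each tested gene in 8 lists of translation and its control, coloured by call, with a black bar at each median and a dashed line at the median of all genes, 0.07. The medians of initiation factors (-0.60), termination and recycling factors (-0.65) and tRNA synthetases (-0.62) lie left of the line, and those of the mTORC1 genes (0.09) and the cap and poly(A) list (0.14) lie on or right of it. The dashed line is not matched for expression, which differs between the lists.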

How the data were processed

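PolyA+ RNA-seq of 2 WT and 2 Pim3-/- ESC libraries was used. The authors deposited raw read counts per gene symbol. The study's methods name Cutadapt, Hisat2, the mm10 genome and Ensembl genes, while the submitters' processing notes name Trim Galore, STAR, featureCounts and GRCm38; which made the table, the versions and the use of strand are not given in the sources used here. A deposited table of transposable elements was not used. Reads shared by near-identical copies may have been split or dropped.

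Counts were tested with edgeR 4.0.16 (R 4.3.3): filterByExpr (minimum count 10, minimum total 15), TMM scaling, quasi-likelihood test, Benjamini-Hochberg adjustment over 18444 genes, calls at an adjusted p under 0.05. CPM are TMM-scaled. Exon lengths and positions came from GENCODE M21 (GRCm38), in which all 54 symbols matched. Calls tested on simulated data recovered 43% of genes changed by 1 and 97% of those changed by 2 on the log2 scale. There were 12 false calls among 17939 genes. The simulation changed 100 genes at each size, balanced up and down and not tied to abundance. It therefore does not bear on how the calls depend on scaling. An exact permutation test of 2 against 2 libraries cannot go below 0.333 and was not used. Totals of 22029427 to 25668307 counts make counting error small for abundant genes; Eif4e3 and Eif4e1b are limited by it.

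Members and lists were chosen with earlier results of these data known. Counts in every library were given for the 6 lowest and 6 highest called genes, eIF4F, the 4E-BPs, eIF2, its kinases, Eif1, Eif1a, Eif1ax, Eif5, Eif5a, Eif5b, Eif6 and the lowest and highest eIF3 and eIF2B genes, and for Eif5a2 and Eif3d in addition, picked after their values were seen. Up to 2 called genes at each end were named from each list. Alternatives were DESeq2 1.42.0 size factors and its Wald test, library totals, other filters, a replicate block and leaving out each library.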

Additional observations from a re-analysis of the deposited data

How the results depend on the processing

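The median log2 fold change of the initiation factor genes was below 0 under all 10 alternatives, from -0.67 to -0.15. All of them but library totals scaled on the bulk of genes, and all reused these libraries. The sign of the median was therefore little tested. Scaling by library totals gave 8 lower and 7 higher initiation factor genes, a median of -0.15, 1094 lower and 6594 higher genes in all, and 11 lower and 25 higher genes over the other translation lists (28 and 9 in the analysis reported). Other scalings, filters and tests gave 20 to 26 lower and 3 higher initiation factor genes. Leaving out 1 library at a time gave 2 to 36 lower and 0 to 5 higher initiation factor genes, 373 to 5255 lower and 402 to 5393 higher genes in all, and 4 to 56 lower and 1 to 19 higher list genes. A lone library is then assumed to vary like the other group. Without WT replicate 1 edgeR called 2 lower and 0 higher, and without WT replicate 2, 6 lower and 0 higher; at an unadjusted p under 0.05 the counts were 21 and 2, and 23 and 2. Without Pim3-/- replicate 1 the calls were 36 and 5, and without Pim3-/- replicate 2, 33 and 4, but the spread then rests on the tight WT pair and these calls are not comparable. Calls of Eif3k and Eif1a held in all 10 alternatives, and those of Eif3i, Eif2s1 and Eif1ax in 9. Eif4g3, not called, ranged from -0.75 to 0.61 when a library was left out. Samples share only a replicate number: deviations of same-numbered libraries correlated at 0.06 over 14092 genes. With a replicate block, 23 initiation factor genes were lower and 3 higher, Eif3h and Eif2ak2 losing their calls.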
